A study of Rattus norvegicus with 10 samples.

Results

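The regions described here are wide stretches of accessible chromatin that were called in every library of both tissues. All listed peaks of 10 ATAC-seq libraries were merged on chromosomes 1 to 20 where they overlapped by at least 1 bp, and a region was kept if each of the 10 lists had a peak in it and if its merged width was 1000 bp or more. This gave 22059 regions out of 781477 merged regions (2.82%). They made up 54.2% of the 40670 regions called in all 10 libraries, and the remaining 18611, narrower than 1000 bp, are used as the comparison and called narrow shared regions. The wide regions were thus chosen by 2 measured values, the call in every list and the merged width, which are described and not tested.

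Adipose libraries (5) were made from abdominal white fat and muscle libraries (5) from gastrocnemius. The donor rats were of the Fischer 344 strain, with the labels male and 8 months. The labels give no genetic change or drug treatment for either group. All rats had 2 weeks to adapt to a reversed light cycle, and about 75000 nuclei were tagmented per library. According to the design text some samples were single animals and others aliquots of tissue pooled from 15 males, without a statement of which. The p-values therefore rest on variation among these particular libraries, part of which may be technical. A peak is an interval that the authors' peak caller listed on build rn6, and a summit is a local maximum inside it. In these bulk samples, fewer nuclei of a type and less opening per nucleus cannot be told apart. No annotation or genome of rn6 was used here, so regions are named by position, no sequence is shown, and the tissues were not checked against marker genes.

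In ATAC-seq a transposase inserts adapters where DNA is not wrapped tightly in nucleosomes. Regulatory DNA that is open in several tissues is known to include promoters of broadly used genes, many of them rich in CpG, and sites bound by the insulator protein CTCF. White adipose tissue holds lipid-storing adipocytes beside stromal, vascular and immune cells, and gastrocnemius muscle holds multinucleated fibres beside vascular, immune and satellite cells, so that some cell types occur in both.

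Several facts about the lists bear on what follows. The lists held 227958 to 299093 rows per library. Depth could be read only as a relative value, from the caller's background, and ran from 0.719 (adipose replicate 1) to 1.25 (adipose replicate 4) in adipose and from 0.833 to 1.21 in muscle. Adipose lists ended at rank 300000 or 299999 and muscle lists at a −log10 p of 2.00. Adipose replicates 2, 3 and 4 went against their male label on the sex chromosomes, with 2.78% to 3.47% of their peaks on X and at most 1 peak on Y. The other 7 libraries had 1.07% to 1.74% on X and 16 to 45 peaks on Y. Each test is therefore also given with adipose replicates 2, 3 and 4 left out, where an exact permutation test can reach a p of 0.0476 at the lowest.

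The wide regions spanned 30.5 Mb, against 13.7 Mb for the narrow shared regions. Their median width was 1300 bp, the middle 50% lay between 1140 and 1532 bp, 1177 reached 2000 bp and 23 reached 3000 bp. Most of this width was assembled from peaks that did not coincide exactly. In 63.3% of the regions (13957) the peaks of adipose alone and those of muscle alone each spread over at least 1000 bp. In 3379 only the adipose peaks did so, in 3738 only the muscle peaks, and in 985 neither tissue did. A single peak of at least 1000 bp was present in all 10 libraries in 1936 regions (8.78%) and in none in 5023 (22.8%). It was present in all 5 muscle libraries and no adipose library in 482 regions, and in all 5 adipose libraries and no muscle library in 35.

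Near the width limit the regions formed a continuum. The 401 regions of 1000 to 1009 bp had a median of 334 bp called in all 10 libraries and 1.80 summits per library, and the 388 regions of 990 to 999 bp had 346 bp and 1.78 summits. The narrowest wide regions, at 1000 bp, were on chromosome 1 at 54033583 to 54034582, 136312851 to 136313850 and 137248192 to 137249191. The widest regions left out, at 999 bp, were on the same chromosome at 24581067 to 24582065, 41383758 to 41384756 and 56755629 to 56756627. The last of these had 528 bp called in all 10 libraries, against 359, 116 and 193 bp in the 3 that were kept.

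Every region was called in all libraries, but over all wide regions less than 50% of the sequence was called in each of them. Bases called in all 10 libraries made up 38.2% of the wide regions' length, with a median of 498 bp per region, and 36.2% of the length of narrow shared regions. In 93.0% of the wide regions at least 1 base was called in all libraries, and in the rest the peaks of different libraries were joined through others. Bases called in all 5 muscle libraries made up 54.8% of the length and bases called in all 5 adipose libraries 43.0%. In narrow shared regions these shares were 49.5% and 42.5%. Bases called in all 5 muscle libraries and in no adipose library were found in 4546 wide regions (20.6%), and the opposite kind in 1533 (6.95%). These bases made up 2.01% (0.612 Mb) and 0.363% (0.110 Mb) of the length, against 0.791% and 0.272% in narrow shared regions. Part of this may be built in, since the peaks of 1 tissue can carry a region past the width limit. Bases called in a single library made up 10.1% of the wide regions' length.

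A muscle library covered more of a wide region than an adipose library. The covered share of a region averaged 57.6%, 66.5%, 69.5%, 65.8% and 68.2% in adipose replicates 1 to 5 and 69.2%, 73.5%, 72.4%, 70.1% and 72.0% in muscle replicates 1 to 5. The tissues overlapped only in that adipose replicate 3 lay above muscle replicate 1. The means were 65.5 ± 4.63% and 71.4 ± 1.76% (SD, n = 5 each), a difference of -5.92 percentage points (two-sided exact permutation p = 0.0159, Benjamini-Hochberg adjusted p = 0.0212 over the 4 tests on libraries). With adipose replicates 1 and 5 only, the difference was -8.52 (exact permutation p = 0.0476). With only peaks above the highest of the lists' own −log10 p limits, the difference was -5.78 over 20025 regions (exact permutation p = 0.0159). Adipose replicate 1, with the lowest relative depth, had the lowest share; adipose replicate 4 had the highest relative depth of all libraries and a share below every muscle library. The part of depth in the difference was not tested. The covered share also comes from the peaks and the merged width that chose the regions. A region can pass the width limit through the peaks of 1 tissue, so part of the difference may be built in. The same applies to the summit numbers below. In the narrow shared regions the covered shares were 66.1 ± 4.56% and 68.2 ± 1.96%; whether the gap between tissues differs between wide and narrow regions was not tested.

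**Figure D1:**
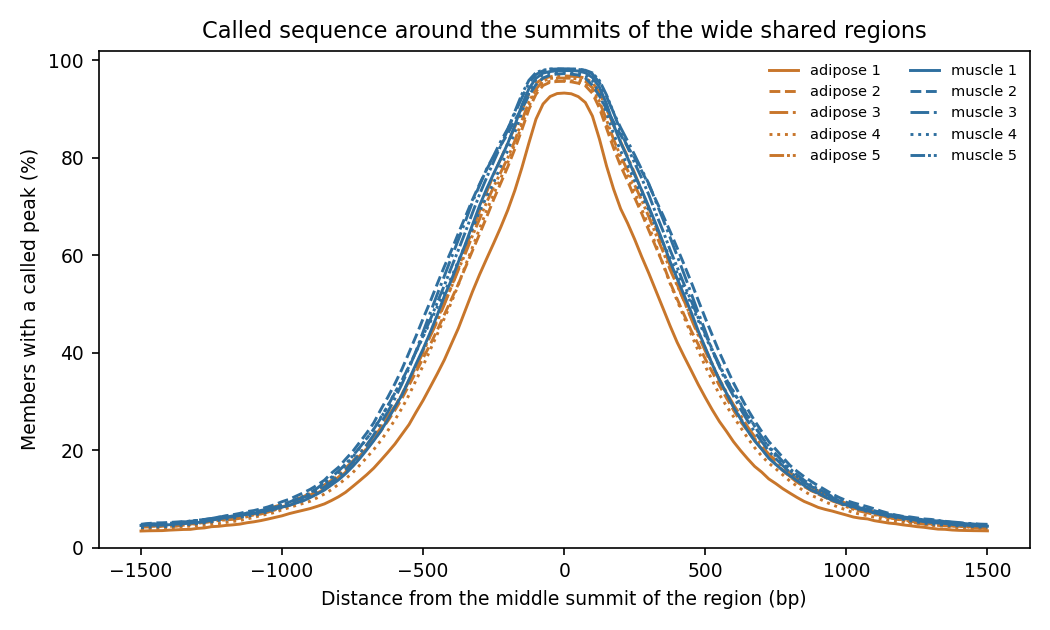
Share of the 22059 wide regions with a called peak (y axis, percent) by distance from the region's middle summit, the median of the strongest summits of the 10 libraries (x axis, bp), with 1 line per library, orange for adipose and blue for muscle. At the summit the lines run from 93.3% (adipose 1) to 98.3% (muscle 3), and 500 bp to the left from 30.3% (adipose 1) to 47.0% (muscle 2).

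The profile around the summits gave the called share by position, and whether the tissues overlapped changed with the position. At the middle summit 93.3% to 96.8% of the regions were called in an adipose library and 97.3% to 98.3% in a muscle library, without overlap. Strongest summits lay closer together in muscle than in adipose (below), so their median may lie nearer the muscle summits. Part of the gap at the centre may thus be built in, which was not tested. At 200 bp to the left the shares were 69.3% to 83.0% in adipose and 81.5% to 86.0% in muscle, which overlapped. At 500 bp to the left the shares were 30.3% to 40.5% in adipose and 40.8% to 47.0% in muscle, without overlap. At 750 bp to the left they were 12.6% to 17.8% and 16.7% to 19.7% and overlapped.

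The wide regions held several summits in both tissues, and more in muscle. The mean number of summits per region was 2.25, 2.42, 2.44, 2.30 and 2.55 in adipose replicates 1 to 5 and 2.64, 2.64, 2.66, 2.69 and 2.70 in muscle replicates 1 to 5. All muscle libraries lay above all adipose libraries. The means were 2.39 ± 0.120 and 2.67 ± 0.0276 (SD, n = 5 each), a difference of -0.277 (exact permutation p = 0.00794, the smallest possible, adjusted p = 0.0159). The lists of the tissues end at unlike −log10 p limits. With only peaks above the highest of these limits, which left 20025 regions, the difference was smaller, at -0.139 (exact permutation p = 0.0476). The means were then 2.32 ± 0.142 in adipose and 2.45 ± 0.0582 in muscle, and the tissues were no longer fully separated. The difference was -0.265 (exact permutation p = 0.00794) with only peaks of a −log10 q of at least 5, which left 15604. It was -0.269 with adipose replicates 1 and 5 only (exact permutation p = 0.0476). Regions with 3 or more summits were 35.8% to 46.7% of all in an adipose library and 49.4% to 52.5% in a muscle library. In 9116 regions (41.3%) each of the 10 libraries had at least 2 summits, and in 32 each had exactly 1.

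The number of separate peaks in a region was not shown to differ. It averaged 1.27 ± 0.0127 for adipose libraries and 1.27 ± 0.0497 for muscle libraries (SD, n = 5 each), a difference of -0.00150 (exact permutation p = 0.968, adjusted p = 0.968). With adipose replicates 1 and 5 only it was 0.000122 (exact permutation p = 1). Muscle replicate 4 was highest at 1.35, and the other 9 libraries lay between 1.22 and 1.28. In 7421 regions (33.6%) all 10 libraries had a single unbroken peak.

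**Figure D2:**
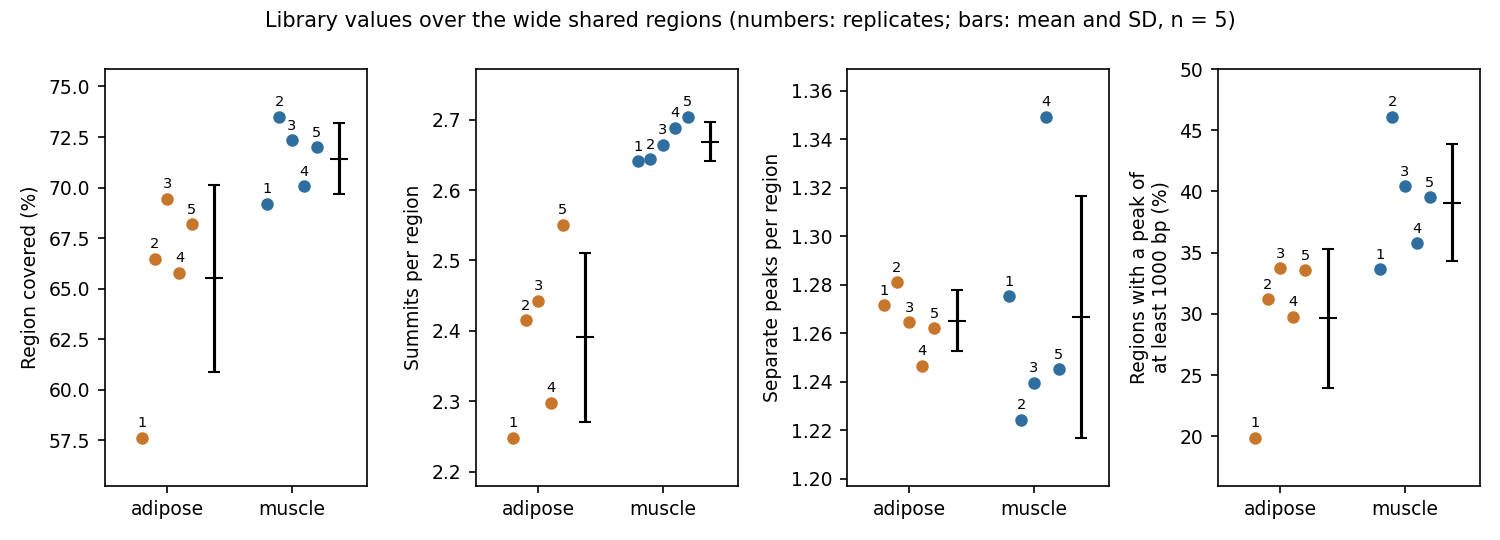
Values of each library over the wide regions: mean share of a region covered (percent), mean number of summits, mean number of separate peaks, and share of regions with a peak of at least 1000 bp (percent); points are libraries labelled by replicate, and bars give the mean and SD of 5. With all listed peaks, muscle libraries lie above all adipose libraries in summits, while the separate peaks of the tissues overlap. At a common −log10 p limit the summits were not fully separated.

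Adjacent summits within a wide region had similar spacings in both tissues, whose difference was not tested. The median spacing was 308 to 324 bp in adipose libraries and 323 to 332 bp in muscle libraries, and the most frequent bin of 25 bp was 250 to 275 bp in each of the 10 libraries. Spacings of 200 to 300 bp made up 32.2% to 37.2% of all, and spacings under 150 bp made up 1.69% to 2.33%. In narrow shared regions, where long spacings cannot occur, the median was 257 to 278 bp. The resolution of the summit caller was not given in the sources used here, and its part in the spacing was not tested.

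The place of the strongest summit was most repeatable in muscle. The summit with the highest fold enrichment was taken in each region and library, fold enrichment being the authors' own value over the caller's background. The median distance between the strongest summits of 2 libraries was 10 to 12 bp for muscle pairs, 21 to 29 bp for adipose pairs and 24 to 35 bp for pairs of different tissues. Means were 11.1, 24.4 and 28.0 bp over 10, 10 and 25 pairs. Adipose pairs and pairs of different tissues thus overlapped, and the separation was clear for muscle. The mean between tissues exceeded that within tissues by 10.25 bp (exact permutation of tissue labels, one-sided p = 0.00794, which no arrangement can undercut, adjusted p = 0.0159). With adipose replicates 1 and 5 only, the excess was 16.95 bp (exact permutation p = 0.0476). With the mean over regions in place of the median it was 47.5 bp (exact permutation p = 0.00794). The pairs of both tissues are pooled as within-tissue pairs here, so a tighter spread in 1 tissue also raises the excess. These tests thus cannot separate a difference in place from a difference in spread. In the narrow shared regions the means were 14.1 bp for muscle, 23.8 bp for adipose and 23.9 bp between tissues. All 5 muscle summits fell within 50 bp in 66.2% of the wide regions, all 5 adipose summits in 39.5%, and all 10 in 28.2%.

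**Figure D3:**
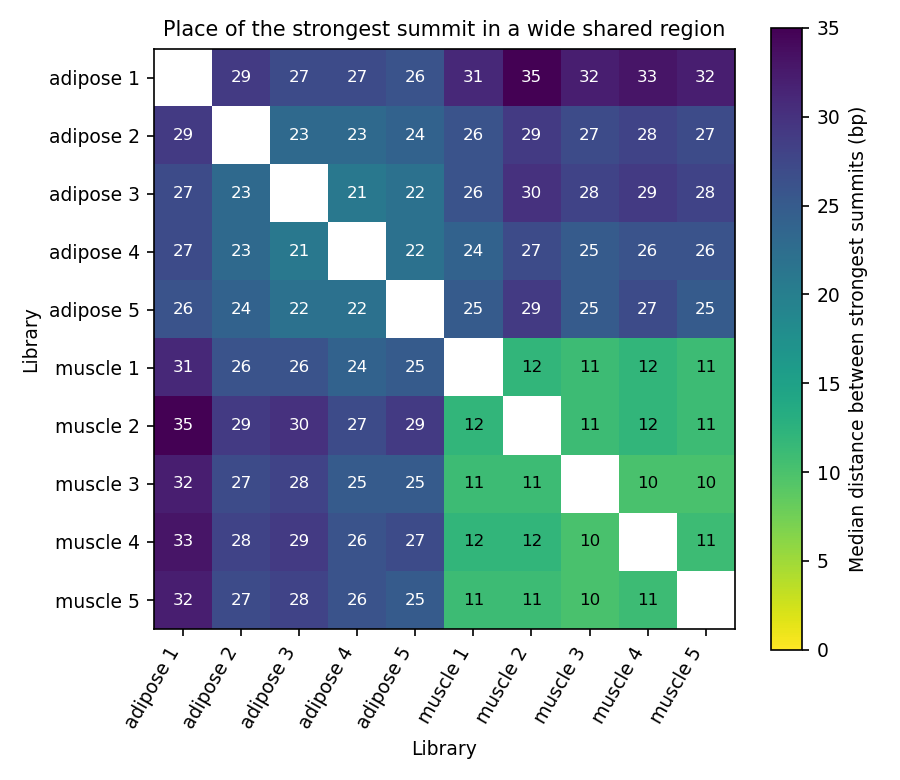
Median distance in bp between the strongest summits of a wide region for each pair of libraries (rows and columns are libraries, colour and number give the distance). The 10 muscle pairs lie between 10 and 12 bp, and each pair with an adipose library is at 21 bp or more.

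In a small set of wide regions the summit with the highest fold enrichment lay at a different place in each tissue. In 702 regions all 5 adipose summits lay to 1 side of all 5 muscle summits with a gap of at least 200 bp. This is 3.18% of the wide regions; over all regions called in all 10 libraries the share was 1.98%, and in narrow shared regions, which leave less room for such a gap, it was 0.548%. With adipose replicates 1 and 5 only, which asks for fewer libraries, the number was 1426 (6.46%, against 4.12% of all regions called in all 10 libraries). The median gap was 462 bp and the largest 1712 bp. This count and its examples were chosen after seeing the data, and the examples are the 3 whose lowest rank in any library was best. On chromosome 1 at 48032881 to 48034118, the strongest summit lay 797 to 818 bp from the left end in the 5 adipose libraries and 575 to 585 bp from it in the 5 muscle libraries. Both tissues called most of that region, with 1037 to 1236 bp in adipose and 954 to 1105 bp in muscle, and with 3 or 4 summits in each library. Both places had a summit in 9 of the 10 libraries, adipose replicate 3 lacking the left one, and the tissues differed in which was the higher. The higher and the lower had fold enrichments of 18.9 and 18.1 in muscle replicate 1 and of 15.3 and 14.1 in adipose replicate 5. On chromosome 2 at 9577768 to 9579216 the offsets were 638 to 662 bp in adipose and 309 to 326 bp in muscle. On chromosome 2 at 86462060 to 86463262 the order was opposite, with 253 to 269 bp in adipose and 514 to 544 bp in muscle. In each of the 3 regions the libraries of a tissue lay within 30 bp of one another, and the tissues did not overlap.

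Wide regions ranked above the middle of the shared regions, and the widest did not rank highest. Ranks were taken among the same 40670 regions in each library by the fold enrichment of the strongest summit, as percentiles. Width and strength are tied through the peak caller, so these values are descriptions. The median percentile of the wide regions was 59.8 to 61.1 in adipose libraries and 62.0 to 62.5 in muscle libraries. By width, the median percentile averaged 58.7 in adipose and 60.8 in muscle for the 9402 regions of the narrowest of 4 width classes. It was 65.0 and 66.7 for the next 6516, which stayed under 1500 bp, and 60.8 and 62.3 for the 4964 from 1500 to under 2000 bp. For the 1177 regions of 2000 bp or more it was 51.9 and 52.0. The number of summits grew across these classes, from 2.00 to 2.49, 3.15 and 4.32 per library, while the covered share stayed at 61.7% to 66.5% in adipose and 70.9% to 72.0% in muscle.

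The 5 widest regions were built mostly of many summits of low fold enrichment, none above 6.40 in any library. The widest, on chromosome 20 at 40869438 to 40873885 (4448 bp), had 10 to 13 summits in adipose and 6 to 10 in muscle. The fold enrichment of its strongest summit ran from 2.75 to 4.16 over the libraries, and its weakest summit in any library was at 1.42. Peaks covered 3451, 4049, 3942, 3925 and 3566 bp in adipose replicates 1 to 5 and 2889, 2944, 2468, 1890 and 2094 bp in muscle replicates 1 to 5, without overlap between the tissues. The next, on chromosome 6 at 140416959 to 140421329 (4371 bp), had 2040 to 3632 bp covered in adipose and 644 to 2433 bp in muscle, which overlapped, and 283 bp called in all libraries. On chromosome 1 at 221770656 to 221774707 (4052 bp) muscle covered more, with 3284 to 3951 bp against 881 to 2073 bp in adipose. The strongest summit there had a fold enrichment of 3.80 to 5.63 in adipose and 2.91 to 4.99 in muscle, which overlapped. On chromosome 12 at 36643281 to 36647138 (3858 bp) muscle again covered more, with 2625 to 3617 bp against 1876 to 2398 bp. On chromosome 9 at 8772881 to 8776623 (3743 bp) the tissues overlapped, with 3044 to 3425 bp in adipose and 2198 to 3172 bp in muscle. The widest regions thus included ones with more cover in either tissue.

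In the strongest wide regions, the strongest summit lay at a fixed place in all libraries. Chromosome 12 at 4718592 to 4719617 (1026 bp) led this set, with a percentile of at least 99.9 in each library. Fold enrichment at its summit was 24.5, 27.1, 27.1, 26.0 and 25.6 in adipose replicates 1 to 5 and 34.9, 30.1, 32.4, 33.6 and 35.0 in muscle replicates 1 to 5. Fold enrichment was higher in muscle over the wide regions as a whole, where the library medians averaged 6.24 in adipose and 9.55 in muscle. In narrow shared regions they averaged 4.78 and 5.90. In the region on chromosome 12 the strongest summit lay 523 to 536 bp from the left end in all 10 libraries, and 777 bp were called in all of them. The other 4 spanned 77242942 to 77244123 of chromosome 6, 104541706 to 104543247 of chromosome 8, 225582489 to 225583669 of chromosome 1, and 101525937 to 101527088 of chromosome 5. In these 4 the strongest summits of the 10 libraries spanned at most 30 bp, each library had a single unbroken peak, and the covered length was 496 to 1449 bp.

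The longest stretches called by all libraries were found in another set. On chromosome 1 at 148440817 to 148443770 (2954 bp), 2473 bp were called in all 10 libraries. Peaks covered 2605, 2887, 2931, 2689 and 2873 bp there in adipose replicates 1 to 5 and 2597, 2761, 2674, 2580 and 2590 bp in muscle replicates 1 to 5, which overlapped. It had 7 to 10 summits per library. The strongest summit of a library had a fold enrichment of 4.38 to 5.88, and the weakest of all had 1.74. Common stretches followed of 2242 bp (chromosome 16, 22071921 to 22074873), 2095 bp (chromosome 9, 50556710 to 50559187), 2078 bp (chromosome 7, 70944844 to 70947520) and 2074 bp (chromosome 18, 32672335 to 32675293). The strongest summits in these 4 had fold enrichments between 4.13 and 8.62 in all libraries.

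**Figure D4:**
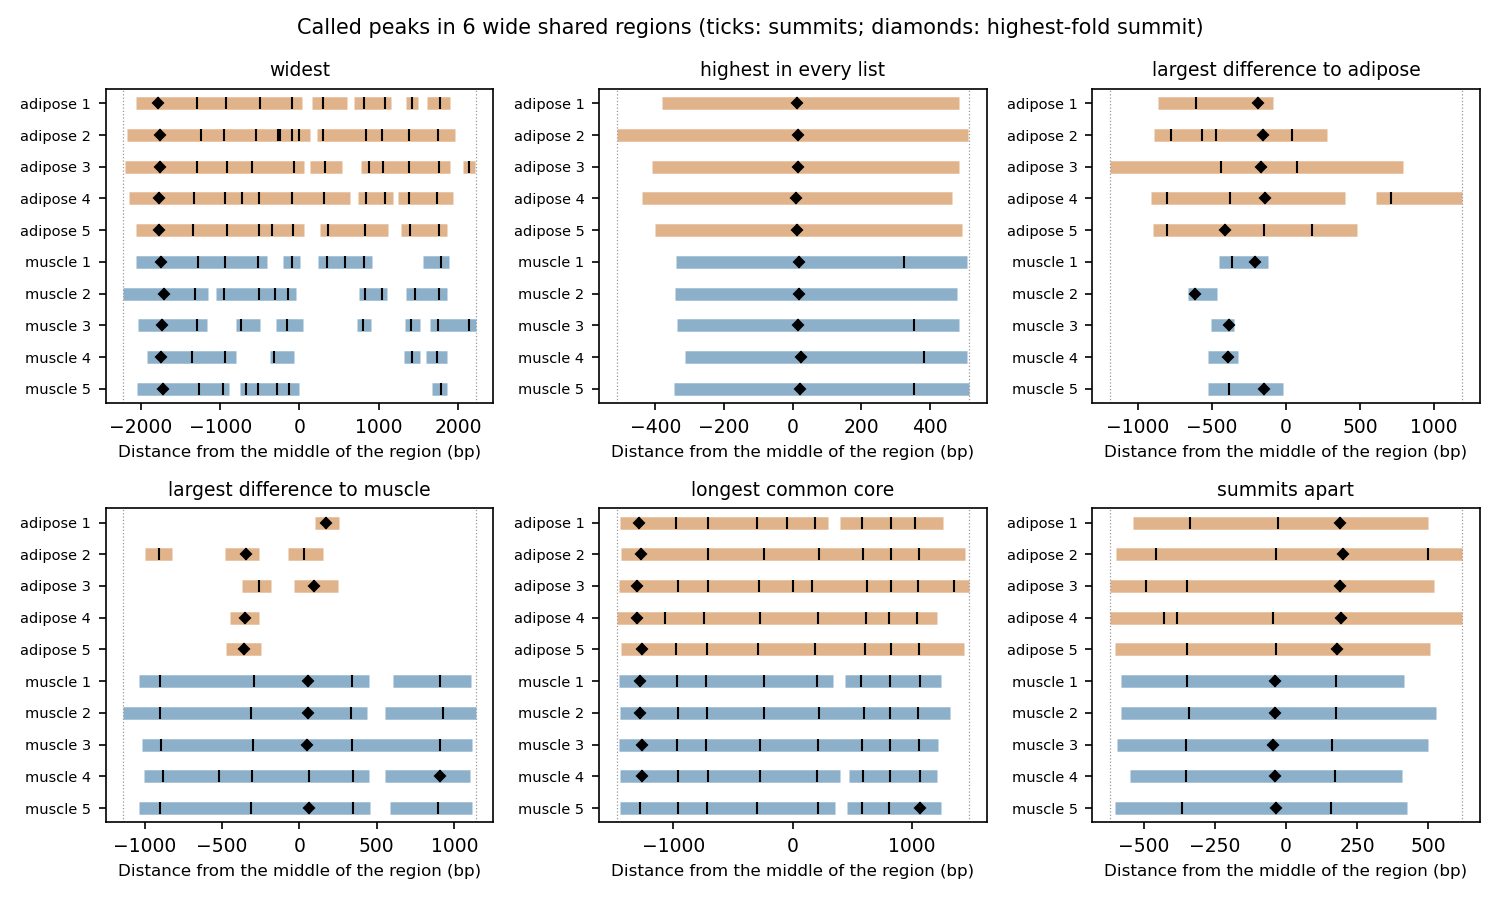
Called peaks of the 10 libraries (rows; orange adipose, blue muscle) in 6 wide regions by distance from the region's middle (x axis, bp); bars are peaks, ticks are summits, diamonds the summit with the highest fold enrichment, and dotted lines the region's ends. The strongest region has a diamond at 1 place in all libraries, and the region with summits apart has them in 2 places, 1 for each tissue.

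Covered length per region was then compared between tissues over all 40670 regions called in all 10 libraries, with each library centred on its median log2 covered length. In limma (Benjamini-Hochberg adjusted p under 0.05), 2526 wide regions (11.5%) had more covered length in adipose and 2278 (10.3%) had more in muscle. Over all regions tested the shares were 10.4% and 7.43%, so the share for adipose was near that background and the share for muscle was above it. Part of any such excess is built in, since a region can pass the width limit through the peaks of the tissue that covers more of it, and nothing is read from it about wide regions. In both directions together, 21.8% of the wide regions were called, against 17.8% of all regions tested. The narrow shared regions alone gave 9.06% for adipose and 3.99% for muscle, 13.1% together. The median log2 difference, adipose minus muscle, was 0.06 over the wide regions and 0.08 over all regions tested. Differences towards muscle were the larger ones, with a median of -0.87 in the regions called for muscle and 0.52 in those called for adipose. Among the called wide regions, 724 for adipose and 1961 for muscle (3.28% and 8.89%) had no overlap between the tissues in bp covered, against 3.35% and 6.38% of all regions tested and 3.42% and 3.4% of the narrow ones. Overlap was judged in bp without centring, while the calls rest on centred values. Centring moved the differences towards adipose, so this filter favours muscle and the counts for the tissues are not on equal terms.

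The balance between the tissues depended on the centring. Without it the median over all regions moved from 0.08 to -0.07, and 897 wide regions had more covered length in adipose and 3210 in muscle (background 4% and 10.9%), with no call in the opposite direction to that with centring. With only peaks of a −log10 q of at least 5, 15604 wide regions could be tested, and 1243 and 1218 were called (background 7.49% and 6.15%). The number for adipose fell to 1649 without muscle replicate 3 (background 6.88%), and with adipose replicates 1 and 5 only the numbers were 1103 and 2065 (background 4.01% and 6.66%).

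**Figure D5:**
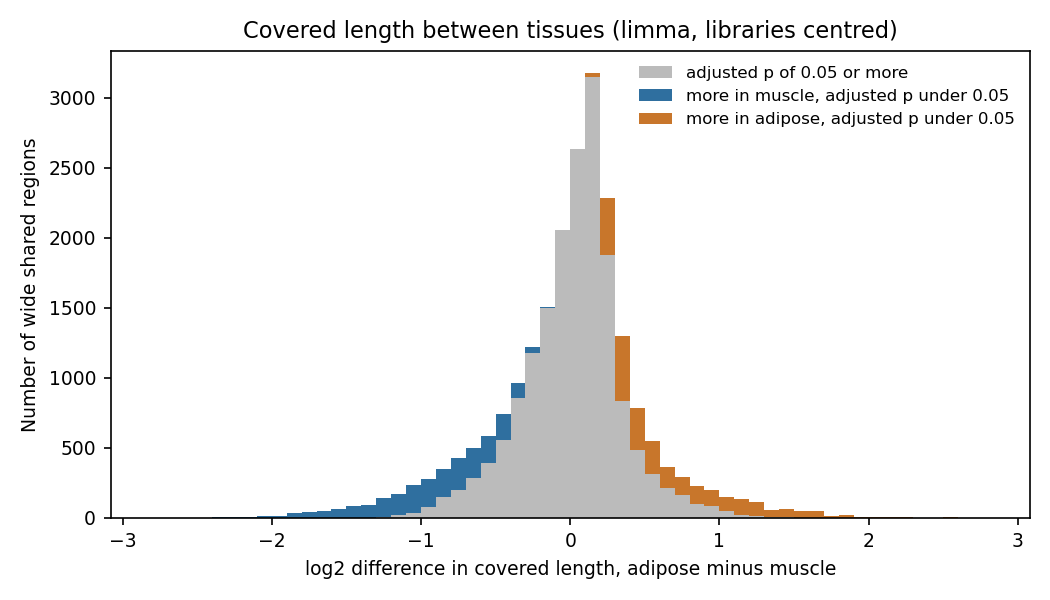
Number of wide regions (y axis) by log2 difference in covered length, adipose minus muscle, from the limma fit with centred libraries (x axis, bins of 0.1); grey bars did not pass an adjusted p of 0.05, orange (2526) had more in adipose and blue (2278) more in muscle. The called regions have a median of -0.87 for muscle and 0.52 for adipose.

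The share of wide regions called is given by width as a description only, because a region extended by 1 tissue alone is wider and also has unequal cover. From the narrowest to the widest of the 4 width classes it was 9.42%, 11.97%, 13.8% and 15.0% for adipose and 8.14%, 9.56%, 12.9% and 21.2% for muscle. Regions with more cover in muscle had 3.27 summits per library in muscle and 1.76 in adipose. Those with more cover in adipose had 2.94 in adipose and 2.30 in muscle. The stretch called in all 10 libraries had a median of 268 bp in the regions for muscle, 604.5 bp in those for adipose and 534 bp in regions without a call. Strongest summits lay at least 200 bp apart in 10.7% of the regions for muscle, 1.78% of those for adipose and 2.40% of the rest. These are descriptions of the called groups, since cover, summits and common stretch come from the same peaks.

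At the 5 wide regions with the largest difference towards muscle, adipose libraries had short peaks. Muscle peaks largely set the extent of these regions, so a large muscle share of them follows from the selection. Only called regions without overlap between the tissues could be picked, so the separation of the tissues follows from it too. The first, on chromosome 7 at 94975045 to 94977319 (2275 bp), was covered over 156, 626, 471, 186 and 224 bp in adipose replicates 1 to 5 and 1990, 2163, 2134, 1999 and 2021 bp in muscle replicates 1 to 5. Each muscle library exceeded each adipose library by more than 1000 bp. The log2 difference was -2.70 (SE 0.31, limma adjusted p = 0.000425), and -3.25 (adjusted p = 8.89e-06) with adipose replicates 1 and 5 only. Fold enrichment at the strongest summit was 2.59 to 3.997 in adipose and 8.85 to 10.7 in muscle. Over all wide regions the library medians averaged 6.24 in adipose and 9.55 in muscle.

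On chromosome 10 at 75291254 to 75293207 (1954 bp) the adipose values were 150, 300, 298, 218 and 261 bp, and the muscle values 1158, 1545, 1636, 1319 and 1169 bp. The shortest peak any list held was 150 bp, so that adipose replicate 1 was at that floor. No covered length of a shared region can lie below it, which bounds the log2 differences. The log2 difference was -2.35 (SE 0.18, limma adjusted p = 4.54e-05), or -2.56 (adjusted p = 0.000333) with adipose replicates 1 and 5 only, with fold enrichments of 2.63 to 5.22 in adipose and 8.55 to 15.0 in muscle. The other 3 began at 150359164 on chromosome 4, at 60865328 on chromosome 7 and at 29992006 on chromosome 3, with log2 differences of -2.50, -2.40 and -2.35. With adipose replicates 1 and 5 only, these were -1.46, -2.31 and -2.23 (limma adjusted p = 0.000134, 0.00228 and 0.000945). In those 3, adipose libraries covered 150 to 708 bp and muscle libraries 1133 to 2416 bp. Adipose replicate 4 was at the floor on chromosome 7 at 60865328.

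At the 5 wide regions with the largest difference towards adipose, adipose libraries did not always cover most of the region. Only called regions without overlap between the tissues could be picked. That each adipose library covers more than each muscle library there follows from the selection. On chromosome 5 at 17092540 to 17094916 (2377 bp), peaks covered 776, 1167, 1978, 1886 and 1382 bp in adipose replicates 1 to 5 and 329, 192, 155, 203 and 505 bp in muscle replicates 1 to 5. By the selection, each adipose library lay above each muscle library. The log2 difference was 2.59 (SE 0.32, limma adjusted p = 0.000631), or 2.255 (adjusted p = 0.0192) with adipose replicates 1 and 5 only, and the fold enrichments were 4.29 to 5.43 in adipose and 2.00 to 3.84 in muscle.

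On chromosome 1 at 66079738 to 66081520 (1783 bp) the adipose values were 1506, 1099, 1022, 1570 and 1603 bp, and the muscle values 415, 322, 382, 170 and 150 bp. The log2 difference was 2.49 (SE 0.30, limma adjusted p = 0.000563), and 2.77 (adjusted p = 0.00726) with adipose replicates 1 and 5 only. Adipose fold enrichments there, 6.42 to 10.1, did not overlap with those of muscle, 2.47 to 4.80. The other 3 began at 55421270 on chromosome 1, at 79754938 on chromosome 5 and at 12414081 on chromosome 17, with log2 differences of 2.56, 2.53 and 2.28. With adipose replicates 1 and 5 only, these were 2.63, 2.45 and 2.50 (limma adjusted p = 0.0439, 0.0179 and 0.0355). On chromosome 1 at 55421270 all 5 adipose libraries covered 1959 to 2038 bp, and the muscle libraries 150 to 964 bp. Muscle replicate 2 was at the floor of 150 bp there, and muscle replicate 5 on chromosome 1 at 66079738. Muscle replicates 1 and 4 were at it on chromosome 5 at 79754938.

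The surroundings of the called regions were compared by their distance to peaks of 1 tissue. Regions called in all 5 muscle libraries and in no adipose library numbered 18757 on chromosomes 1 to 20, and the opposite kind 5793. A muscle-only region lay within 10000 bp of 22.6% of all wide regions and of 23.3% of the narrow shared regions. That share was 33.5% for wide regions with more cover in muscle, 19.7% for those with more cover in adipose and 21.6% for those without a call. An adipose-only region lay within the same distance of 7.99%, 5.27% and 5.09% of them. It did so for 5.41% of all wide regions and 5.79% of the narrow shared regions. Wide regions with more cover in muscle thus had the higher share for both kinds of neighbour, and these shares are descriptions without a test.

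Wide regions were spread over all 20 autosomes and made up 51.8% (chromosomes 2 and 16) to 58.1% (chromosome 12) of the regions called in all 10 libraries on each. As a share of all merged regions they ranged from 1.82% on chromosome 2 to 6.07% on chromosome 10. The share of wide regions with more cover in muscle ran from 7.75% (chromosome 14) to 13.7% (chromosome 10). That with more in adipose ran from 6.85% (chromosome 10) to 14.2% (chromosome 13). Over all regions tested, on all chromosomes together, the shares were 7.43% for muscle and 10.4% for adipose. Shares over all regions tested were not taken per chromosome, so these ranges are descriptions without a test and are not tied to the wide regions.

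Neighbouring wide regions lay a median of 34981 bp apart, with the middle 50% between 15043 and 86909 bp. In chains, defined as neighbours less than 10000 bp apart, there were 6071 wide regions (27.5%) in 2669 chains, and 142 chains had 4 or more. Narrow shared regions, taken by themselves, lay a median of 42402 bp apart and 36.4% were in chains. The longest chain had 8 wide regions within 45244 bp on chromosome 16 at 22013072 to 22058315. Summed over its regions, peaks covered 11183, 10305, 10603, 10842 and 11205 bp in adipose replicates 1 to 5 and 8911, 9514, 10863, 8079 and 10301 bp in muscle replicates 1 to 5, which overlapped. A region named above for its common stretch, on chromosome 16 at 22071921, lay beyond its right end, farther than the chain limit. The next 4 chains had 6 wide regions each and began at 221142733 on chromosome 1, at 197759978 on chromosome 2, and at 9515225 and 110285391 on chromosome 3. In the first of these muscle covered more, with 6432 to 8028 bp against 5016 to 5457 bp in adipose, and in the other 3 the tissues overlapped.

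The wide regions took up a large part of the called sequence with few of the peaks. They held 10.9% to 11.7% of the peaks of an adipose library and 15.1% to 17.7% of those of a muscle library on chromosomes 1 to 20. By length they held 23.3 ± 1.19% and 30.0 ± 1.17% (SD, n = 5 each). The adipose lists were longer, which lowers such shares, so no test was made.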

How the data were processed

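The deposited files are 1 peak list per library in narrowPeak layout, called per library on build rn6; the tools listed, per the submitters' processing notes, are FastQC, Trimmomatic, Bowtie2, Picard and MACS2, with no version or setting. A read shift for transposase insertion and the handling of duplicates are not given in the sources used here. Each deposited row has a score, a fold enrichment (a ratio) and the −log10 p and −log10 q, all by the authors. An interval repeated over rows with different summits was taken as 1 peak holding those summits. Depth is unknown except as a relative value from the spacing of the fold values, so no counting interval is given.

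Library means were compared with exact permutation tests, and log2 covered bp per region with limma (lmFit, eBayes with trend) and Benjamini-Hochberg adjustment over all 40670 regions called in all lists. The covered-length code was tested on simulated data. Named regions are the 5 widest, the 5 with the best worst rank, the 5 with the largest called difference without overlap in each direction, the 5 longest common stretches, the 5 longest chains and the regions at the width limit. The regions and measures were chosen with earlier results of these data known. No pairing was used in the main tests. The count of regions with summits apart was added after seeing the data. Alternatives were other thresholds, joins, centring and variance models, and single libraries left out. Genes, promoters and motifs were not analysed here. The software was Python 3.11.15, pandas 2.3.3, SciPy 1.17.1, NumPy 2.4.6, R 4.3.3 and limma 3.58.1.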

Additional observations from a re-analysis of the deposited data

Results flagged for a closer look

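For 68 sets of 5 libraries of a tissue, the extreme value was set against its nearest neighbour. In 7 sets this gap exceeded 0.71 of the full range, and chance alone does so in about 1 in 20 sets. Adipose replicate 1 had the lowest median covered length among adipose libraries, 782 bp, the lowest share of wide regions with a peak of at least 1000 bp, 19.9%, and the lowest share whose strongest summit reached a −log10 q of 5, 80.4%. Among muscle libraries, the median fold enrichment of replicate 5 was highest, at 11.8. Muscle replicate 5 also stood apart in single regions, with the most covered length in muscle on chromosome 5 at 79754938 (544 bp) and on chromosome 17 at 12414081 (833 bp), and the least on chromosome 16 at 22071921 (2418 bp).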

How the results depend on the processing

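The number of wide regions was 6141 at a width of at least 1500 bp and lay between 15098 (−log10 q of at least 5) and 29900 (at least 800 bp) in the other settings; with adipose replicates 1 and 5 only it was 20548. With single libraries left out it ran from 21339 to 22564. Regions with more covered length in adipose numbered 897 without centring, 1243 under the q limit of 5, 1103 with adipose replicates 1 and 5 only and 1649 to 2260 with single libraries left out. Those with more in muscle numbered 1218 under that q limit and 1616 to 2269 with single libraries left out. Of the log2 differences of the 10 named regions, all 161 alternative values that could be computed kept direction and side of the threshold. These regions were picked from the same data by that threshold and by size, so this was largely set by the selection. None of the 10 had a value under the q limit of 5, because none kept a peak in every library. Their call in all libraries thus rests on peaks below that limit in at least 1 library. At the common floor only those on chromosome 17 at 12414081, chromosome 7 at 60865328 and chromosome 3 at 29992006 had a value. Those on chromosome 5 at 79754938 and chromosome 17 at 12414081 had none with a join of 100 bp. The value on chromosome 4 at 150359164 moved from -2.50 to -1.46 with adipose replicates 1 and 5 only. With the titles' numbers as a replicate block, limma called 2017 and 2073 (over all regions tested, 7.95% and 6.42%); paired by these numbers, the differences of -5.916 percentage points in covered share and -0.2774 in summits gave p = 0.0625 in an exact sign-flip test, which 5 pairs cannot undercut. The numbers are not shown to pair the libraries: deviations of same-numbered libraries correlated with r from -0.0322 to 0.116, and not every library correlated best with its own number. With single libraries left out, the covered share difference ran from -6.902 to -3.947 (exact permutation p at most 0.0397), the summits from -0.3174 to -0.2418 and the summit distance from 8.188 to 12.23 bp; with the mean over regions the last was 47.5 bp. The difference in separate peaks, near 0, changed sign at the common floor (0.03369), with a join of 100 bp (0.004273) and with adipose replicates 1 and 5 only (0.000122), and ran from -0.01209 to 0.01913 with single libraries left out. Regions with summits apart numbered 1426 with adipose replicates 1 and 5 only (4.12% of all regions called in all libraries) and 729 to 832 with single libraries left out (2.06% to 2.36%). The cause was not tested. Depth is known only as a relative value, so no limit from read numbers could be set.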

Other observations

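A single wide region had a −log10 p of at least 1000 at its strongest summit in each of the 10 libraries, on chromosome 4 at 77447547 to 77448683 (1137 bp), and no narrow shared region did. Its −log10 p ran from 1081 to 9290 over the libraries, while its fold enrichment ran only from 8.64 to 11.3.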
